A study of Mus musculus with 8 samples.

Results

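H3K27Ac, a histone mark of active promoters and enhancers, was described at 10 genes of the YAP, TEAD and Hippo pathway: the coactivators *Yap1* and *Wwtr1* (which encodes TAZ), the DNA-binding partners *Tead1*, *Tead2*, *Tead3* and *Tead4*, the competing cofactor *Vgll4*, the kinases *Lats1* and *Lats2*, and the scaffold *Sav1*. A peak was given to the gene with the curated RefSeq transcription start (mm10) nearest to the centre of the peak. Of the 45987 deposited peaks, 64 were given to these genes. All 10 genes had at least 1 peak, from 1 at *Tead2* to 18 at *Tead1*.

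The chromatin came from mouse ventricles at postnatal day 7. Control mice were *Arid1a* f/f, with floxed alleles and no Cre named in the label, and *Arid1a cKO* mice were *Arid1a* f/f with *αMHC-Cre*, so that all mice carried floxed alleles. Each genotype had 2 H3K27Ac libraries and 2 input libraries, 8 in all. The *αMHC* promoter drives Cre in cardiomyocytes, whereas whole ventricles also hold fibroblasts, endothelial cells and other cells, and a group with Cre and no floxed allele was not analysed here. The table used gives 1 authors' mean per peak and group and no value per library, so the depth and the spread between libraries are unknown. No difference was tested here. The authors' own p-value and FDR for each peak were not used, so a peak past 2-fold is a description and not a called change.

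YAP and TAZ are transcriptional coactivators that do not bind DNA themselves and reach enhancers and promoters through TEAD factors. The MST kinases, with their scaffold partner SAV1, activate the kinases LATS1 and LATS2, which phosphorylate YAP and TAZ and keep them out of the nucleus, and VGLL4 competes with YAP for TEAD. In the heart, YAP activity promotes cardiomyocyte proliferation before birth and in newborns, and Hippo signalling restrains it as the heart matures.

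Because YAP and TAZ act through TEAD, the promoters of the pathway's own genes were searched for the TEAD core CATTCC on both strands. RefSeq promoters of 300 bases (GRCm38.p6) were held for 8 of the 10 genes, with 12 promoters in all, and not for *Tead1* and *Tead4*. CATTCC or its reverse complement lay in 8 of these 12 promoters, against 14.7% of all 32851 promoters. *Wwtr1* and *Tead3* each gave 2 of the 8, and promoters of 1 gene may share bases, so that 1 match can count in more than 1 of them. Shown here is the stretch around the match in a promoter of each of the 6 genes with a match, on the strand of the gene, with the core or its reverse complement in capitals.
*Yap1* promoter (chr9:8004687-8004782): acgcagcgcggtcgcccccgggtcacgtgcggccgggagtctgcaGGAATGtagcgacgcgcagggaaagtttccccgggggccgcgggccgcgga
*Wwtr1* promoter (chr3:57575996-57576091): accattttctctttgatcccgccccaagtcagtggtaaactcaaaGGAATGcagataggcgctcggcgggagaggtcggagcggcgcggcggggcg
*Tead3* promoter (chr17:28350937-28351032): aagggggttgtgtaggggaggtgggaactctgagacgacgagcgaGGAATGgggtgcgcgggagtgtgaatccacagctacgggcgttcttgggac
*Vgll4* promoter (chr6:114969235-114969330): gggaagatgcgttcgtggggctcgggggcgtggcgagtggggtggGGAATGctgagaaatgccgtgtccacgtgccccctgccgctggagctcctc
*Lats2* promoter (chr14:57746074-57746164): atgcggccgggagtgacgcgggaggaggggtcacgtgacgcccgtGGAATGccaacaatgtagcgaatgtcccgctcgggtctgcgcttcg
*Sav1* promoter (chr12:69987058-69987153): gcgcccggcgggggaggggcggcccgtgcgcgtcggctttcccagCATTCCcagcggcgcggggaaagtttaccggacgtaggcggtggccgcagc

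The match lay 141 bases before the start of *Yap1*, 136 before that of *Wwtr1*, 182 before that of *Tead3*, 82 before that of *Vgll4* and 106 before that of *Sav1*, and 4 bases after that of *Lats2*. The *Vgll4* stretch lay just outside its peak. The *Yap1*, *Vgll4* and *Lats2* stretches also held an E-box, CACGTG, which 7.15% of all promoters held. No match was found in the promoters of *Tead2* and *Lats1*. A match describes the letters only, and binding was not measured.

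The second set of sequences comes from the peaks at which the authors' means of the 2 groups differed at least 2-fold, because those peaks carry the differences reported for these genes. Peaks are named by the distance of their centre from the nearest start of the gene, downstream unless stated. Of the 10 such peaks, 8 were lower and 2 higher in *Arid1a cKO*. CATTCC (on either strand) lay in the central 500 bp of 3 lower peaks and 1 higher peak. The ESRR core AAGGTCA (on either strand) lay there in 3 lower peaks and 0 higher ones. Of all peaks, 26.4% held CATTCC and 11.3% held AAGGTCA there. Of all peaks at least 2-fold lower, 29.4% and 17.9% did. The 10 peaks are few and were picked by their difference, so these counts are a description. The end of AAGGTCA and the start of CATTCC can share bases. The plus strand of mm10 is shown, with the matches in capitals.
*Tead1*, 49.0 kb, lower, ESRR core (chr7:112728097-112728173): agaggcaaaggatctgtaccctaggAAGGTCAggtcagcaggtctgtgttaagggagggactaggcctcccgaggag
*Tead1*, 74.6 kb, lower, ESRR core (chr7:112753885-112753981): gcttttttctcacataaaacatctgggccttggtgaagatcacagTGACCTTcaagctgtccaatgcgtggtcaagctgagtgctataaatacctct
*Tead1*, 100.4 kb, lower, TEAD core (chr7:112779613-112779708): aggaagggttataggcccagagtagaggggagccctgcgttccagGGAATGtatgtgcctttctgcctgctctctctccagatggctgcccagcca
*Vgll4*, 108.9 kb, lower, ESRR core (chr6:114812751-114812847): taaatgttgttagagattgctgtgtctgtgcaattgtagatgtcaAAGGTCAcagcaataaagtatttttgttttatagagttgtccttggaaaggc
*Lats1*, 7.25 kb, lower, TEAD core (chr10:7688310-7688405): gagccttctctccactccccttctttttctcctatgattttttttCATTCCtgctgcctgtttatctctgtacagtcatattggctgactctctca
*Lats2*, 7.72 kb, higher, TEAD cores (chr14:57726454-57726634): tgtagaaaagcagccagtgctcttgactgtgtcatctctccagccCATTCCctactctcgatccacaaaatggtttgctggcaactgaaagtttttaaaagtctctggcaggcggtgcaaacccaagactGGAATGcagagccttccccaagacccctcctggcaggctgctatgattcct
*Sav1*, 28.9 kb upstream, lower, TEAD core (chr12:70015679-70015774): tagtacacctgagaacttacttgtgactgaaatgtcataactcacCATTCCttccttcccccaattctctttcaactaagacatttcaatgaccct

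In the text that follows, a level is the authors' mean of normalized reads in a group, and a difference is the log2 level in *Arid1a cKO* minus that in Control, so that -1 is 2-fold lower and 1 is 2-fold higher. A level at or under 3 reads was treated as a floor. The targeted gene came first. The *Arid1a* promoter peak (chr4:133749994-133758098) had 1610 reads in Control and 1660 in *Arid1a cKO*, a difference of 0.05. H3K27Ac at the promoter does not show whether the floxed exons were deleted, so it checks neither label. The ventricular label was checked at marker genes. The promoter peak of the ventricular gene *Myl2* ran over 21363 bp with 2800 and 2520 reads, and that of *Myh6*, a cardiomyocyte gene that atria also express, over 24969 bp with 3590 and 3930 reads. All 8 genes of the ventricular cardiomyocyte list had peaks, and the other promoters are given with the marker lists. The list holds genes that atria also express, such as *Myh6*, so this count does not separate ventricle from atrium. Of 5 atrial markers, *Sln* and *Bmp10* had no peak, *Nr2f2* had 15 peaks, and the promoter peaks of *Nppa* (49.5 and 234 reads) and *Myl7* (2.45 and 11.4 reads) were low beside *Myl2* but higher in *Arid1a cKO*.

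The peaks of the pathway genes were on the whole close to each other in the 2 groups. Of the 64 peaks, 54 differed by less than 2-fold. The other 10 were 8 peaks at least 2-fold lower in *Arid1a cKO* (12.5%, beside 10.6% of all 45980 peaks on assembled chromosomes) and 2 peaks at least 2-fold higher (3.12%, beside 4.57%). Both shares lay near the background. The median difference over the 64 peaks was 0.07 (quartiles -0.22 and 0.28), and that of all peaks was 0.01. By role, the median was -0.01 over the 8 peaks of *Yap1* and *Wwtr1*, 0.03 over the 24 *Tead* peaks, 0.08 over the 15 *Vgll4* peaks and 0.14 over the 17 peaks of *Lats1*, *Lats2* and *Sav1*. In bulk tissue, fewer cells of a type and less of the mark per cell cannot be told apart.

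**Figure D1:**
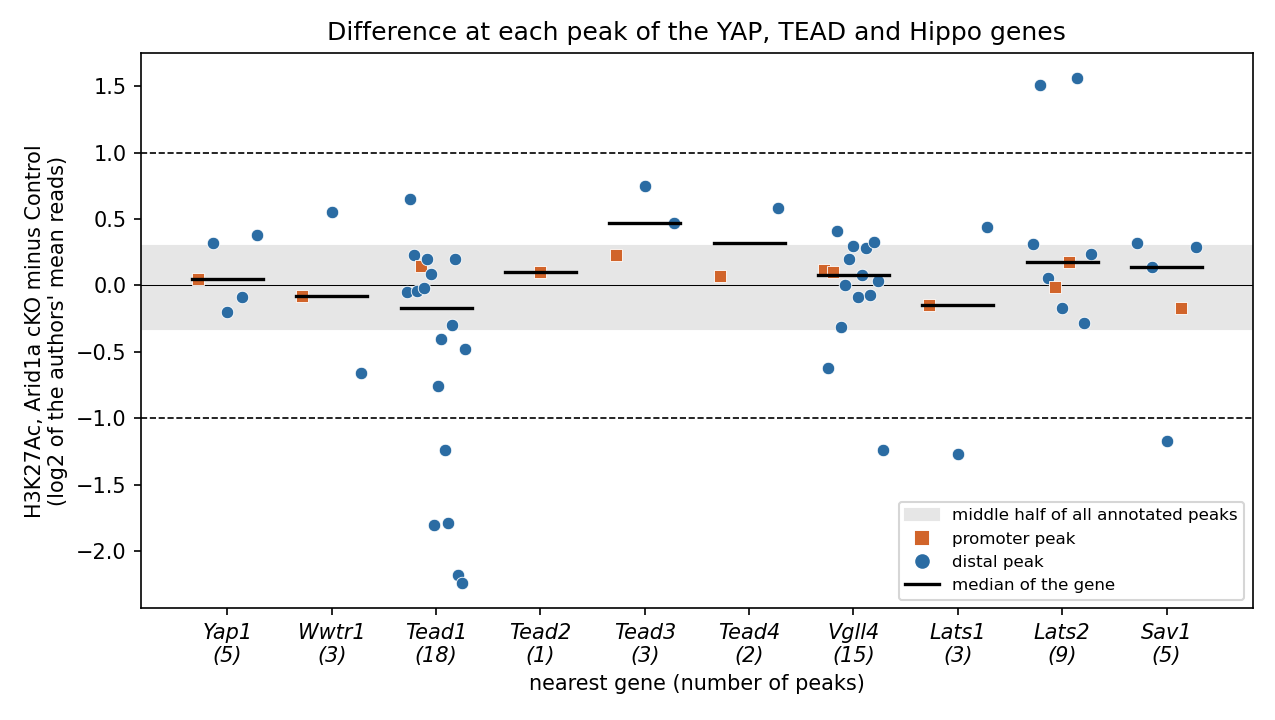
Difference in H3K27Ac (log2, *Arid1a cKO* minus Control, from the authors' means) at each of the 64 peaks by nearest gene, peaks in order along each gene, with squares for promoter peaks, circles for distal peaks and black bars for medians, where the grey band runs from -0.33 to 0.30 (quartiles of all annotated peaks) and dashed lines mark 2-fold. All 12 promoter peaks lie between -0.17 and 0.23, and 5 of the 8 peaks under the lower line belong to *Tead1*.

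The 10 peaks past 2-fold were all distal. A promoter peak was defined as a peak that covers a curated start of its nearest gene, and 12 of the 64 peaks were of this kind. None of the 12 promoter peaks passed 2-fold in either direction (over all promoter peaks, 1.70% were lower and 1.16% higher). Of the 52 distal peaks, 8 were lower and 2 were higher, and over all distal peaks 13.8% were lower and 5.78% higher. The median difference was 0.09 over the promoter peaks and 0.04 over the distal peaks.

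The peaks past 2-fold were mostly narrow and low. The 8 lower peaks had a median width of 864.5 bp and a median Control level of 18.4 reads, and the 2 higher peaks a median Control level of 5.83 reads, against 2524 bp and 55.1 reads for the other 54. Low peaks varied more throughout the genome. In the lowest of 20 equal bins of mean level, 19.5% of all peaks were at least 2-fold lower and 19.1% at least 2-fold higher, and in the highest bin 0.652% and 0%.

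**Figure D2:**
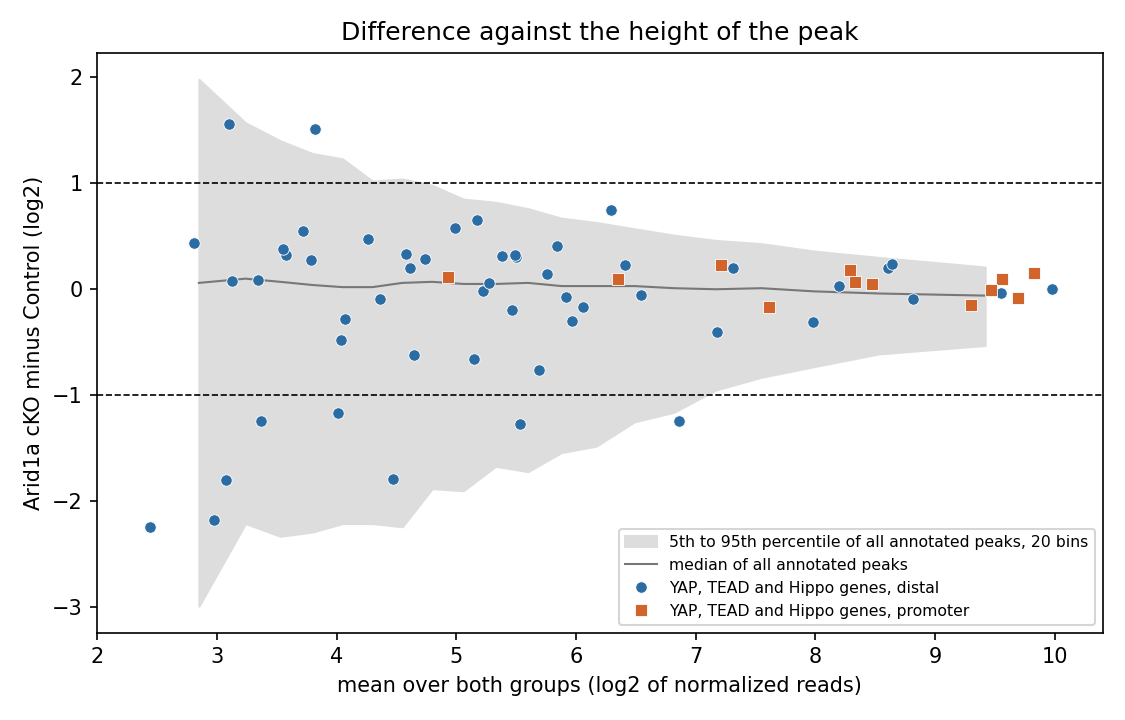
Difference (log2, *Arid1a cKO* minus Control) of the 64 peaks against their mean level over both groups (log2 of the authors' normalized reads), where the grey band holds the 5th to the 95th percentile of all annotated peaks in 20 bins of equal size, drawn at the median level of each bin, and dashed lines mark 2-fold. The band is drawn from a level of 2.85 to 9.42 and narrows with level, and some peaks lie beyond its ends. Within that span, the *Tead1* peak at 74.6 kb (-1.24), the *Tead3* peak at 5.12 kb (0.75) and the *Lats2* peak 14.0 kb upstream (1.51) lie above or below it.

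The effectors *Yap1* and *Wwtr1* had no peak past 2-fold. The *Yap1* promoter peak (chr9:8002492-8005568, 3077 bp) had 350 reads in Control and 362 in *Arid1a cKO*, a difference of 0.05. The highest *Yap1* peak was a domain of 8934 bp in intron 2, 22.7 kb from the start (chr9:7977406-7986339), with 465 and 437 reads (-0.09). The other 3 *Yap1* peaks, all intronic and at 10.2 to 47.5 reads in Control, differed by -0.20, 0.32 and 0.38. The sum over the 5 peaks was 883 reads in Control and 866 in *Arid1a cKO*, a log2 ratio of -0.03.

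*Wwtr1*, the gene of the YAP paralogue TAZ, had 3 peaks. The promoter peak (chr3:57573032-57577445, 4414 bp, centred in an exon) was its highest, with 849 reads in Control and 803 in *Arid1a cKO* (-0.08). Its 2 distal peaks lay in intron 2 and differed in opposite directions. The peak at 12.1 kb (chr3:57562995-57564554) had 43.4 and 27.5 reads (-0.66), and the peak at 3.42 kb (chr3:57572143-57572779) had 10.7 and 15.7 reads (0.55). A further 12 peaks lay inside *Wwtr1* but nearest to the start of another gene, 11 of them to the noncoding gene *Gm16016*, and were therefore not among the 64. Their differences ran from -1.30 to 0.54, and 1 was past 2-fold: a peak over the *Gm16016* start, 48.4 kb into *Wwtr1* (chr3:57526617-57528318), with 32.7 reads in Control and 13.3 in *Arid1a cKO*, and 11.5% of peaks of like level were as low. This peak was named after its value was seen.

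The *Tead* genes encode the DNA-binding partners of YAP and TAZ, and *Tead1* held 18 of their 24 peaks. Its promoter peak (chr7:112677633-112682280, 4648 bp) was the highest *Tead1* peak, with 861 reads in Control and 955 in *Arid1a cKO* (0.15). An intergenic domain of 10699 bp, 20.1 kb upstream (chr7:112653941-112664639), had 760 and 739 reads (-0.04). The promoter and the upstream domain thus differed little.

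Inside the gene the picture differed. Of the 18 *Tead1* peaks, 5 (27.8%, beside 10.6% of all peaks) were at least 2-fold lower and 0 (beside 4.57%) higher. Since 17 of the 18 were distal, the nearer background is that of all distal peaks, 13.8% lower and 5.78% higher. Without peaks of a mean log2 level under 4, 2 of 14 were lower, beside 8.96% of all such peaks. All 5 lay in introns 1 and 2 from 49.0 to 100.4 kb downstream of the start. The lower peak with the most reads was that at 74.6 kb in intron 1 (chr7:112752267-112755569, 3303 bp), with 163 reads in Control and 69.1 in *Arid1a cKO* (-1.24). Of the 2299 peaks in the same bin of mean level, 4.31% were as low. Its neighbour at 77.7 kb (chr7:112756538-112757613) had 34.5 and 9.99 reads (-1.79).

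The remaining 3 lower *Tead1* peaks were short and near the floor. The peak at 49.0 kb (chr7:112727921-112728772) had 13.2 reads in Control and 3.78 in *Arid1a cKO* (-1.80). In intron 2, the peak at 94.4 kb (chr7:112773434-112774139) had 12.9 and 2.85 reads, at least 4.3-fold lower against the floor. The peak at 100.4 kb (chr7:112779436-112780016) had 8.94 and 1.89 reads, at least 2.98-fold lower. Differences of this size were not rare at such levels, where 7.18% to 9.66% of peaks of like level were as low.

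The lower peaks did not stand alone along *Tead1*. In the 51.4 kb between the outermost of them lay 9 peaks, of which 8 had a difference under 0, with a median of -1.24 and summed levels of 555 reads in Control and 334 in *Arid1a cKO*. The 4 that did not pass 2-fold were at 54.4 kb (64.9 and 38.3 reads, -0.76), 63.2 kb (165 and 125 reads, -0.40), 81.1 kb (69.1 and 56.1 reads, -0.30) and 84.3 kb (22.8 and 26.2 reads, 0.20). The 8 peaks before this stretch, from 64.1 kb upstream to 41.4 kb downstream, had a median of 0.12 and a range of -0.05 to 0.65, and none was past 2-fold. The 1 peak after it, at 127.9 kb in intron 2, had 19.2 and 13.7 reads (-0.48). The borders of the stretch were set by the lower peaks themselves, so this contrast is a description.

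The rule for membership also left 5 peaks at the far end of *Tead1* to the neighbouring gene *Rassf10*, whose start lay nearer. These include the largest fall in read number within the gene, named here after its value was seen: an intronic peak of 4838 bp, 192.8 kb downstream of the *Tead1* start (chr7:112869707-112874544), with 252 reads in Control and 50.6 in *Arid1a cKO* (-2.32). Of peaks of like level, 0.391% were as low. A second peak, at 206.8 kb (chr7:112885606-112886642), had 4.76 reads in *Arid1a cKO* and was 4.41-fold lower (-2.14), and 6.13% of peaks of like level were as low. The other 3 lay at 145.7 kb (-0.19), 162.6 kb (0.33) and 176.8 kb (-0.83). With peaks assigned by the body of the gene and 10 kb around it, 7 of 19 *Tead1* peaks were at least 2-fold lower. Beside this stand 10.6% of all peaks and 13.8% of all distal peaks.

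**Figure D3:**
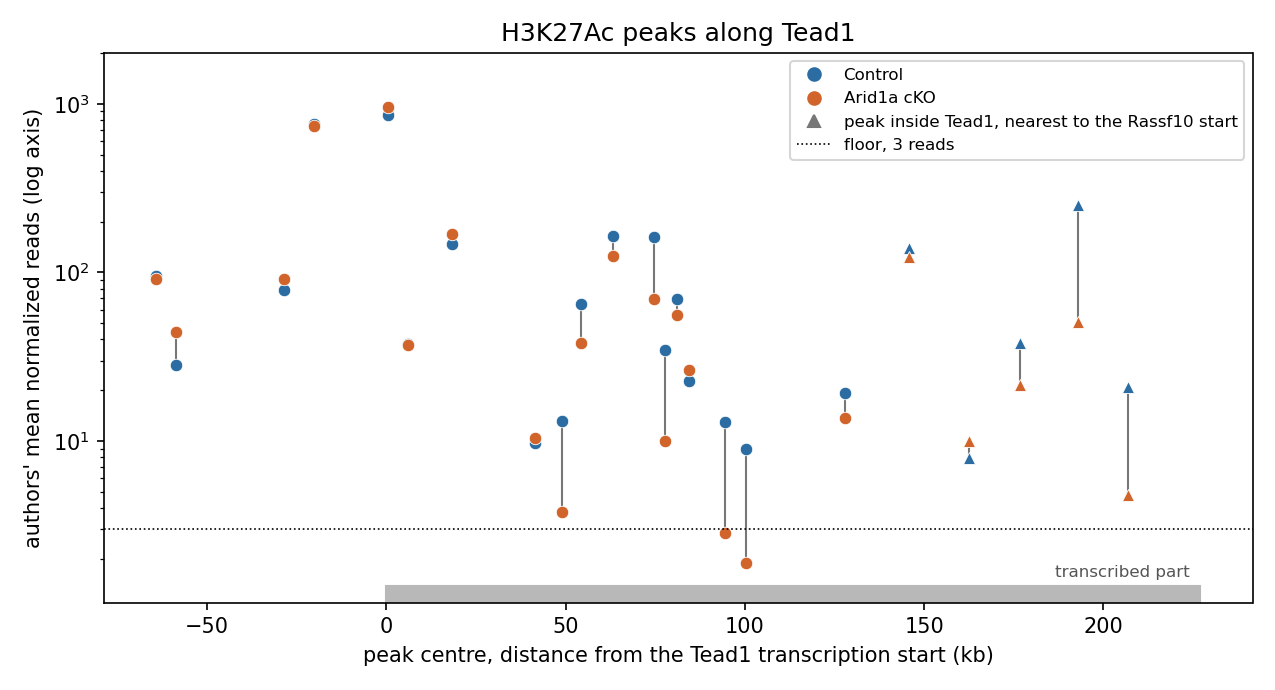
Authors' mean normalized reads (log axis) in Control and *Arid1a cKO* at each peak along *Tead1*, against the distance of the peak's centre from the transcription start in kb, with circles for the 18 peaks of *Tead1*, triangles for the 5 peaks inside the gene that are nearest to the *Rassf10* start, a grey bar for the transcribed part and a dotted line for the floor of 3 reads. From the upstream peaks to 41.4 kb the differences run from -0.05 to 0.65, and 5 peaks from 49.0 to 100.4 kb are at least 2-fold lower in *Arid1a cKO*.

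The share of lower peaks at *Tead1* was not at the end of the genome-wide order. Of the 2747 genes with 5 or more peaks, 446 (16.2%) had a larger share at least 2-fold lower, and of the 143 genes with at least as many peaks as *Tead1*, 10 (6.99%) did. By median difference, -0.17 for *Tead1*, 825 of the 2747 genes were lower. At *Sav1* 20% of peaks were lower, and 554 genes had a larger share, and at *Vgll4* 6.67%, with 1239 genes above it. *Yap1* and *Lats2* had 0 lower peaks, and 1308 genes had some. By median, 1522 genes lay below *Yap1*, 1636 below *Vgll4*, 1869 below *Sav1* and 1994 below *Lats2*. Means of 2 groups give no profile over samples, so likeness between genes was not computed.

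The other *Tead* genes had 6 peaks among them, and none was past 2-fold. With so few peaks, *Tead1* and these genes were not compared by their counts. *Tead3* was higher in *Arid1a cKO* at all 3 of its peaks. Its promoter peak (chr17:28348096-28351754) had 136 reads in Control and 160 in *Arid1a cKO* (0.23). Its intron 1 peak at 5.12 kb (chr17:28343720-28346725) had 58.5 and 98.4 reads (0.75), and 2.65% of peaks of like level were as high. The third, at 9.23 kb in intron 2 (chr17:28340410-28341829), had 16.1 and 22.3 reads (0.47). For the promoter peak and the third peak, 19.2% and 25.4% of peaks of like level were as high. Summed over the gene, *Tead3* had 211 reads in Control and 280 in *Arid1a cKO*.

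*Tead4* had a promoter peak and 1 distal peak. Its promoter peak (chr6:128295813-128301701, 5889 bp) had 313 and 329 reads (0.07), and its peak at 36.3 kb in intron 2 (chr6:128263551-128265425) had 25.5 and 38.1 reads (0.58). *Tead2* had its promoter peak alone (chr7:45215601-45217400), with 78.8 reads in Control and 84.4 in *Arid1a cKO* (0.10).

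*Vgll4*, whose product competes with YAP for TEAD, held the widest peak of the 10 genes. Its highest peak, also the highest of the 64, was an intron 3 domain of 13450 bp, 43.0 kb from the nearest start (chr6:114872113-114885562), with 1010 reads in each group (0.00). The promoter peak over the downstream start (chr6:114914834-114922682, 7849 bp) had 729 and 781 reads (0.10), and the peak over the upstream start (chr6:114968256-114969206) had 29.2 and 31.8 reads (0.12). Across all 15 peaks, 14 were within 2-fold, and the sums were 2965 reads in Control and 3037 in *Arid1a cKO*.

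The peaks given to *Vgll4* reached beyond the gene. The 7 most distant, from 62.9 to 108.9 kb, lay in intron 19 of the adjoining gene *Atg7*, and the 1 *Vgll4* peak past 2-fold was the last of them (chr6:114812609-114813288), with 14.5 reads in Control and 6.15 in *Arid1a cKO* (-1.24). Of peaks of like level, 11.7% were as low. Next to it, a peak of 6677 bp at 101.4 kb (chr6:114817041-114823717) had 292 and 298 reads (0.03). The difference at the last *Vgll4* peak was thus not shared by its strong neighbour.

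Among the kinases, *Lats1* had the highest promoter level of the 10 genes per kb of peak. *Lats2* had the only higher peaks past 2-fold, 2 of the 64 peaks (3.12%, beside 4.57% of all peaks). The *Lats1* promoter peak (chr10:7679879-7682760, 2882 bp) had 666 reads in Control and 600 in *Arid1a cKO* (-0.15). The peak at 7.25 kb in intron 1 (chr10:7687427-7689491, 2065 bp) had 65.3 and 27.1 reads (-1.27), and 7.83% of peaks of like level were as low. The third *Lats1* peak, at 15.6 kb in intron 2 (chr10:7696424-7697144), had 5.94 and 8.06 reads (0.44). Among the 8 lower peaks, only the *Tead1* peak at 74.6 kb had more Control reads than the *Lats1* peak at 7.25 kb.

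*Lats2*, a kinase gene that is itself a target of YAP, had 9 peaks. The promoter peak over its upstream start (chr14:57743947-57747864, 3918 bp) had 709 and 704 reads (-0.01), and that over its internal start (chr14:57729371-57735288, 5918 bp) had 292 and 331 reads (0.18). A domain of 7176 bp at 25.8 kb in intron 2 (chr14:57705028-57712203) had 365 and 431 reads (0.24). The strong *Lats2* peaks thus differed little.

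The 2 higher *Lats2* peaks were weak in both groups. The peak at 7.72 kb in intron 2 (chr14:57726296-57727105, 810 bp), whose pair of TEAD cores is printed above, had 4.35 reads in Control and 12.8 in *Arid1a cKO* (1.56, or 2.95-fold higher). The intergenic peak 14.0 kb upstream (chr14:57759540-57760683, 1144 bp) had 7.31 and 20.8 reads (1.51, or 2.85-fold higher). Of peaks of like level, 5.09% and 3.04% were as high. The other 7 *Lats2* peaks lay between -0.28 and 0.31.

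*Sav1*, the scaffold of the kinase cascade, had 5 peaks. Its promoter peak (chr12:69985430-69988031, 2602 bp), the highest, had 207 reads in Control and 184 in *Arid1a cKO* (-0.17). The 1 peak past 2-fold lay 28.9 kb upstream, in intron 28 of the neighbouring gene *Nin* (chr12:70015439-70016315, 877 bp), with 22.3 and 9.92 reads (-1.17), and 13.7% of peaks of like level were as low. The 2 peaks farther upstream, also in *Nin*, and the *Sav1* peak in its intron 2 differed by 0.14 to 0.32. A further peak inside *Sav1*, nearest to the start of *Gm3086* and so not among the 64 (chr12:69965149-69967074), had 41.4 and 29.4 reads (-0.49).

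Promoter levels were set side by side per kb of peak, an order that depends on the called widths, which ran from 951 to 7849 bp. By Control reads alone, *Tead1* (861), *Wwtr1* (849), the downstream *Vgll4* start (729) and the upstream *Lats2* start (709) stood above *Lats1* (666). In Control the order ran from *Lats1* (231 reads per kb) through *Wwtr1* (192), *Tead1* (185), the upstream *Lats2* start (181), *Yap1* (114), the downstream *Vgll4* start (92.9), *Sav1* (79.4), *Tead4* (53.1), the internal *Lats2* start (49.3), *Tead2* (43.8) and *Tead3* (37.2) to the upstream *Vgll4* start (30.7). In *Arid1a cKO*, *Tead1* (206 reads per kb) stood next to *Lats1* (208) and above *Wwtr1* (182). With no spread per library, neighbours in this order cannot be told apart. All 12 lay within -0.17 and 0.23 on the log2 scale, and the quartiles over all promoter peaks were -0.14 and 0.17.

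**Figure D4:**
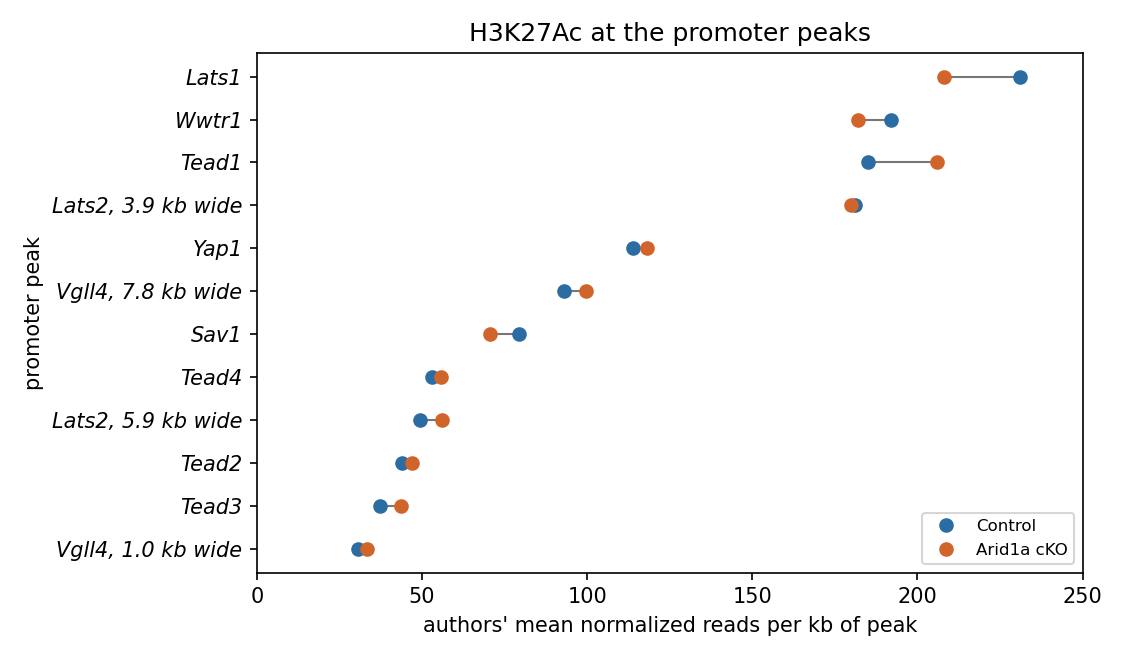
Authors' mean normalized reads per kb of peak at the 12 promoter peaks in Control and *Arid1a cKO*, in order of the Control level, where *Lats2* and *Vgll4* have a promoter peak at each of 2 starts, named by width. Levels run from 30.7 (*Vgll4*) to 231 (*Lats1*) reads per kb in Control, and the largest differences are -0.17 (*Sav1*) and 0.23 (*Tead3*).

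The motifs searched were counted in all 64 peaks. CATTCC lay in the central 500 bp of 16 peaks (25%), against 26.4% of all peaks. The ESRR core AAGGTCA lay in 10 (15.6%, against 11.3%), the E-box CACGTG in 4 (6.25%, against 7.96%) and the MEF2 core in 3 (4.69%, against 2.58%), each searched on both strands. Counted per kb of whole peak, the order turned for CATTCC (0.667 in the 64 peaks, 0.612 in all), CACGTG (0.207 and 0.167) and AAGGTCA (0.197 and 0.23), and not for the MEF2 core (0.0362 and 0.0334). Among the 8 lower peaks, CATTCC lay in 3 (the *Tead1* peak at 100.4 kb and those of *Lats1* and *Sav1*) and AAGGTCA in 3 (the *Tead1* peaks at 49.0 and 74.6 kb and that of *Vgll4*), the E-box and the MEF2 core in 0. Over all 4878 peaks at least 2-fold lower, the shares were 29.4% for CATTCC, 17.9% for AAGGTCA, 7.87% for the E-box and 5.56% for the MEF2 core. The higher *Lats2* peak at 7.72 kb held 2 TEAD cores in its central 500 bp (30.4% of all peaks at least 2-fold higher held 1 or more), and the other held 3 in its whole length and 0 at its centre.

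The rest of the pathway was read in the same way. Of 26 further Hippo pathway genes, all had peaks, 133 in total, with a median difference of 0.07, and 15 (11.3%, beside 10.6% of all peaks) were at least 2-fold lower and 5 (3.76%, beside 4.57%) higher. The lowest was a peak 55.8 kb upstream of *Wwc1* (46.2 and 0.946 reads, at least 15.4-fold lower), which lay inside *Tenm2*, followed by *Ajuba* (48.5 and 5.7 reads, -3.09), *Ptpn14* (25.5 and 4.26 reads, -2.58) and *Frmd6* (17.1 and 3.32 reads, -2.37). The highest were at *Frmd6* (3.25 and 12.3 reads, 1.92), *Btrc* (1.18), *Amotl2* (1.12) and *Amotl1* (1.07). Of the vestigial-like genes related to *Vgll4*, *Vgll1* had no peak, the 1 *Vgll2* peak had 45.9 and 27.1 reads (-0.76), and 2 of 5 *Vgll3* peaks were higher, the largest with 0.946 and 7.57 reads (at least 2.52-fold higher).

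Targets of YAP and TAZ were read beside the pathway's own genes. A general list of 22 targets, which includes *Lats2*, *Amotl2* and *Ptpn14*, had 148 peaks with a median of 0.07, and 16 (10.8%) were lower and 10 (6.76%) higher. *Foxf2* had no peak. The lowest were intergenic peaks, 31.9 kb upstream of *Ccn1* (37.3 and 0.946 reads, at least 12.4-fold lower) and 111.8 kb upstream of *Gadd45a* (21.4 and 0.946 reads, at least 7.14-fold lower). The highest was an intronic peak of *Myof*, 77.5 kb from the start (1.44 and 14.2 reads, at least 4.74-fold higher). The promoter peaks of these genes differed little: *Ccn1* 1090 and 1130 reads (0.05), *Gadd45a* 189 and 174 (-0.12), *Myof* 43.7 and 38.9 (-0.17). The 7 targets named by the study had 61 peaks with a median of 0.47, of which 5 (8.20%) were lower and 17 (27.9%) higher, led by *Fgf7* (7 of 8 peaks, its promoter at least 22.5-fold higher) and *Sytl2* (5 of 8 peaks). *Ankrd1*, *Ccn1* and *Ccn2* are on both lists. *Fgf7*, *Ankrd1* and *Acta2* were named by the study with these H3K27Ac data in use, and *Sytl2* was its example of a locus with more of the mark, so the count is not independent evidence. Of the 10 pathway genes themselves, *Lats2* alone had higher peaks past 2-fold. These were 2 weak peaks of the 64 (3.12%, beside 4.57% of all peaks). Without peaks of a mean log2 level under 4, 0 were higher.

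**Figure D5:**
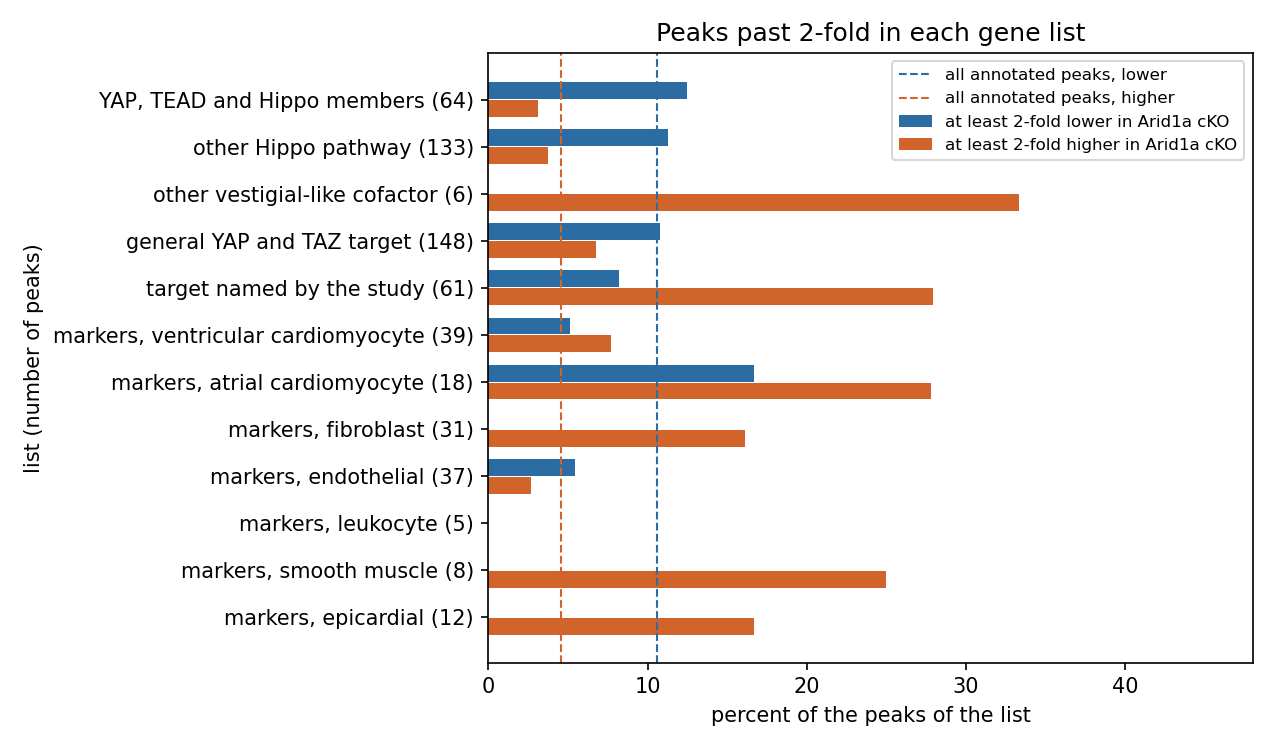
Percent of peaks at least 2-fold lower and at least 2-fold higher in *Arid1a cKO* (authors' means) in each gene list, with the number of peaks in brackets and dashed lines at the shares of all annotated peaks, 10.6% lower and 4.57% higher. The 64 pathway peaks (12.5% and 3.12%) lie near both lines, and the targets named by the study have 27.9% higher.

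Markers of cell types of the heart were read the same way, since whole ventricles were used, and their counts stand beside 10.6% lower and 4.57% higher over all peaks. Fibroblast marker genes (5 of 5 with peaks, most reads per kb at *Pdgfra*) had 28 of 31 peaks above 0, a median of 0.44, 0 lower and 5 higher peaks, and summed levels of 2719 reads in Control and 3693 in *Arid1a cKO*. Of the 5 higher fibroblast peaks, 4 were at *Tcf21* and 1 at *Postn*. Atrial markers had peaks at 3 of 5 genes (*Sln* and *Bmp10* had none), a median of 0.30, 3 lower and 5 higher peaks among 18, and 895 and 1107 reads in sum. *Nr2f2* had the most reads per kb of them in Control, *Nppa* had 49.5 and 234 reads (2.24) and both *Myl7* peaks were higher. Smooth muscle markers had 8 peaks (4 of 4 genes, most reads per kb at *Acta2*, which the study's target list also holds) with a median of 0.39, 2 higher and 498 and 839 reads in sum. The sum was mostly *Acta2* (promoter peak 322 and 596 reads), and by gene the median was above 0 at *Acta2* and *Tagln* and below 0 at *Myh11* and *Cnn1*. Leukocyte markers had 5 low peaks at 4 of 5 genes (*Adgre1* had none, most reads per kb at *Ptprc*), a median of 0.23 and 112 and 162 reads, and epicardial markers 12 peaks at 3 of 4 genes (*Upk3b* had none, most reads per kb in Control at *Wt1*), a median of 0.23, 2 higher and 1651 and 1783 reads. Endothelial markers (37 peaks, 5 of 5 genes, most reads per kb at *Cdh5*) had a median of 0.08 with 2 lower and 1 higher and 9961 and 10160 reads, and ventricular cardiomyocyte markers (39 peaks, 8 of 8 genes, most reads per kb at *Myh6*) a median of -0.15 with 2 lower and 3 higher and 18290 and 16540 reads. Of the 39 ventricular peaks 25 were below 0, and 18 were at *Ryr2*. Ventricular promoter peaks were lower in *Arid1a cKO* at *Hey2* (449 and 265 reads, -0.76), *Tnnt2* (1360 and 1010 reads, -0.43), *Actn2* (1440 and 1090 reads, -0.40), *Irx4* (1200 and 955 reads, -0.33), *Myl2* (-0.15) and *Ryr2* (-0.05), and higher at *Myh6* (0.13). The 1 peak given to *Tnni3* was distal, 4.05 kb upstream. A peak over the *Tnni3* start but centred nearer another start would be given to that other gene, so a mark at this promoter is not excluded. The lowest and highest differences were -1.27 (*Actn2*) and 2.59 (a distal *Myl2* peak) among ventricular markers, -2.13 (*Nr2f2*) and 2.33 (*Myl7*) among atrial, -0.75 and 2.02 (both *Postn*) among fibroblast, -2.64 (*Cdh5*) and 1.46 (*Kdr*) among endothelial, 0.07 (*Csf1r*) and 0.88 (*Ptprc*) among leukocyte, -0.46 (*Myh11*) and 2.54 (*Acta2*) among smooth muscle and -0.22 (*Wt1*) and 1.84 (*Tbx18*) among epicardial markers.

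The part of these markers in the *Tead3*, *Tead1* and *Lats2* values was not tested.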

How the data were processed

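H3K27Ac ChIP-Seq of ventricles comprised 2 H3K27Ac and 2 input libraries for each genotype, Control and *Arid1a cKO*. The submitters' processing notes name BWA 0.7.17-r1188, HOMER 4.11, DiffBind 2.12.0 and mm10, and DESeq2 1.24.0 was used by the authors. The paper names an earlier HOMER version for calling peaks and 4.11 for motif discovery. The deposited table gives mean normalized reads per peak as log2, for all H3K27Ac libraries together and for each group, and 0 columns of per-sample values. Its columns of the authors' own comparison (fold change, p-value and FDR) were not used. How libraries were scaled is not given in the sources used here.

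Of all peaks, 45980 on assembled chromosomes were joined to the starts of 45756 curated RefSeq transcripts (GRCm38.p6), and 7 on unplaced sequences were left out. The pathway genes and the gene lists were chosen with earlier results of these data known. Named genes are the 10 members (promoter peaks, highest peak, peaks past 2-fold), in each other list the genes with the largest differences in each direction (1 to 4), list genes with no peak, and *Arid1a*. Tissue markers, the genes of most reads in a marker list and genes said to lead or share a list were named outside this rule with their values known. Alternatives covered the transcripts, the assignment and position of peaks, the fold, the centring, low values, the summary over peaks, the promoter window and the motif window. The steps were tested on simulated data. Python 3.11.15 was used with numpy 2.4.6, pandas 2.3.3, scipy 1.17.1, pysam 0.24.0 and matplotlib 3.10.9.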

Additional observations from a re-analysis of the deposited data

How the results depend on the processing

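The 64 peaks became 51 to 78 when predicted transcripts were added, when coding transcripts alone were used, when peaks were assigned by the body of the gene, or when the nearest edge of the peak was used, and under these 4 alternatives 6 to 10 peaks were at least 2-fold lower and 2 higher. With predicted transcripts 6 peaks were lower, with coding transcripts 10 and with the body of the gene 9, of which 6, 8 and 6 were among the 8 lower peaks. *Tead1* had 5 to 7 lower peaks under the 4 alternatives. Counts moved with the fold and with the level: at 1.5-fold 4 peaks were higher and 11 lower (of all peaks 12.0% and 17.3%), and at 3-fold 0 were higher and 4, all at *Tead1*, lower (1.35% and 5.6%). Without peaks of a mean log2 level under 4, 0 were higher and 4 lower (2.23% and 8.96%), 2 of the 4 at *Tead1*, which then had 14 peaks. The level filter removed both higher peaks and 4 of the lower ones, and a change of fold moves such counts by construction. No centring changed either count. The median over the peaks of the 10 genes stayed between 0.00 and 0.07. The 0.00 was over 73 peaks, assigned by the body of the gene. Where the 64 peaks were kept, the median was 0.06 or 0.07. Centred on peaks of like level, the medians by role were 0.03 (*Yap1* and *Wwtr1*), 0.00 (*Tead*), 0.06 (*Vgll4*) and 0.11 (kinases and *Sav1*). Log2 ratios of summed reads by role ran from -0.06 to 0.03, and the peak of highest level alone from -0.08 to 0.15. For the kinases and *Sav1* these 2 values were 0.00 and -0.01. With promoter peaks taken as those centred from 1000 bp before to 100 bp after a start, 1 peak (*Lats1*) was a promoter peak and the promoter median was -0.15 in place of 0.09. Counted per kb of whole peak, the ratio of the 64 peaks to all peaks turned from above 1 to below it for AAGGTCA and from below 1 to above it for CATTCC and CACGTG, and for the MEF2 core it was 1.09 in place of 1.82. No paired analysis was possible because the table has no per-sample values, and for the same reason no library could be left out. A peak of few reads gives an imprecise difference, and with unknown depth no counting interval could be given.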
